A study of Mus musculus with 36 samples.

Results

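The comparison described here is that of plasma cells labelled Ikk2ca(D) with plasma cells labelled Control(D), 4 libraries against 4. The 8 libraries were chosen by their group labels alone out of 36 libraries in the series, and all genes were compared. Each library was made from 2000 cells sorted from mouse bone marrow as reporter positive and positive for the surface proteins CD138 and TACI, which mark plasma cells, the cells that B cells become when they turn to secreting antibody. The strain of both groups is labelled C57/BL6. Control(D) is labelled as control of the cohort named after Ccnd1, and Ikk2ca(D) carries the Ikk2ca transgene in that cohort without the Ccnd1 transgene. The labels used here give neither the promoter or Cre line behind the transgene nor the age or sex of the mice, and leave open whether each library is a different mouse, so the p-values reflect no more than the variation among these samples. For comparison, the same transgene was read in the other cohort, as Ikk2ca(M) against Control(M) with 4 libraries each, and in combination with Ccnd1, as the 6 libraries of Ccnd1-Ikk2ca. The series is about mouse models of multiple myeloma, the malignancy that arises from plasma cells.

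IKK2, the product of Ikbkb, is the kinase that marks the IκB proteins for destruction, which frees the transcription factor NF-κB to enter the nucleus. Ikk2ca stands for a constitutively active form of this kinase. NF-κB switches on its own inhibitors, among them IκBα (Nfkbia) and A20 (Tnfaip3), so that the level of these genes is commonly read as a measure of pathway activity. In plasma cells and in myeloma the pathway is known for its part in survival.

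Levels are CPM, read counts scaled to a common library size, given in the order of libraries 1 to 4, and as mean ± SD with n = 4. A gene was called when its Benjamini-Hochberg adjusted p from edgeR's quasi-likelihood test, over all 15323 genes tested, was under 0.05. The log2 fold changes, Ikk2ca(D) over Control(D), carry a standard error (SE). The 8 libraries held 59.4 to 97.6 M reads, of which 18.4 to 33.7 M lay outside immunoglobulin genes, and 12540 to 14013 genes had at least 10 reads. Immunoglobulin genes took 63.4% ± 0.825 of reads in Control(D) and 65.3% ± 7.13 in Ikk2ca(D) (SD, n = 4 each), a difference of 1.90 percentage points with p = 0.60 in an exact two-sided permutation test.

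A pair of features set the libraries apart before any comparison. Xist, the RNA that coats the inactive X chromosome of female cells, exceeded 10 CPM in all 4 libraries of Ikk2ca(D) but in only 1 of the 4 of Control(D), so that sex as read from Xist is unbalanced between the groups. Library Ikk2ca(D) 1 differed in its antibody from the other libraries of both groups. Of its heavy-chain constant reads, 95.3% were Ighm. Ighv11-2 gave 90.3% of its Ighv reads and Igkv14-126 gave 96.2% of its Igkv reads. In the Control(D) libraries these V genes took 1.32% to 4.39% and 2.16% to 4.71%. The pairing of a VH11 heavy chain with a Vκ14 light chain is known from B-1 cells that bind phosphatidylcholine. For the libraries of Control(D) and Ikk2ca(D) other than Ikk2ca(D) 1, no single V gene exceeded 27.2% of Igkv reads.

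The transgene came with 67 called genes, 0.437% of those tested. Of these, 61 were higher (0.398%) and 6 were lower (0.0392%) in Ikk2ca(D). In 55 genes the change was at least 2-fold, and the median over the 61 rises was 1.88 on the log2 scale. These genes were chosen by their call, so that median is a description only. The median over all genes tested was 0.01. In 64 of the 67 the Ikk2ca(D) libraries lay all on one side of the Control(D) libraries, a pattern that 4.1% of all genes tested showed upward and 3.48% downward. Named genes made up 59 of the calls, and 8 rises were in gene models without a name. At an unadjusted p under 0.05, 2045 genes (13.3%) differed, 1276 of them higher and 769 lower.

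**Figure D1:**
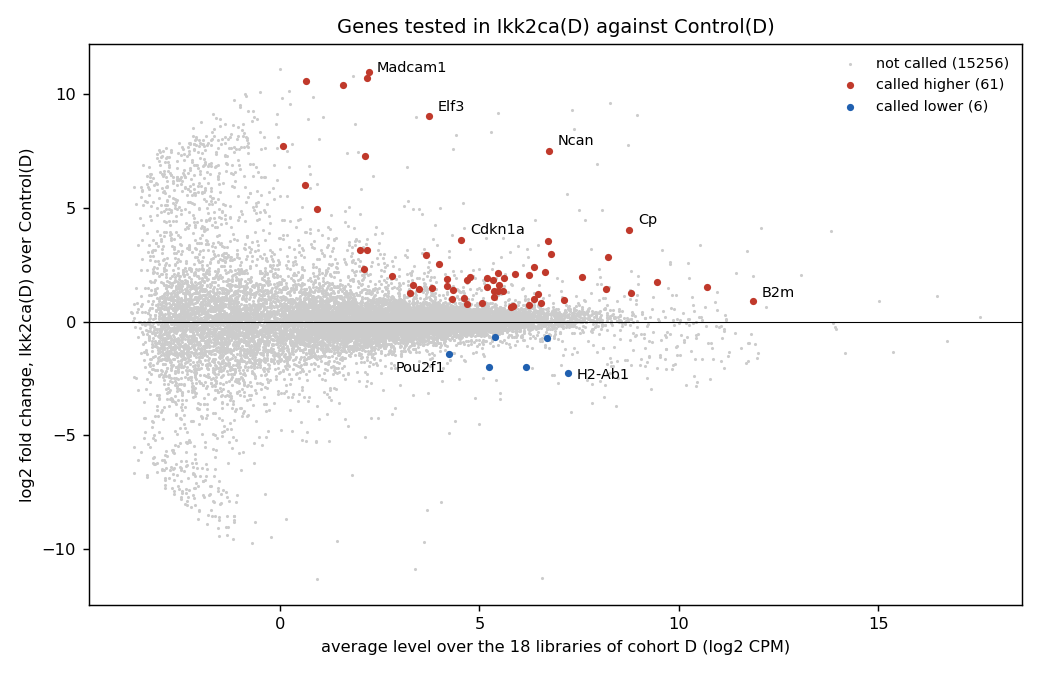
Log2 fold change of each of the 15323 genes tested against its average level (log2 CPM) over the 18 libraries of cohort D. The 61 genes called higher (red) lie at low and high levels alike, and the 6 called lower (blue) reach down to H2-Ab1 at -2.28. For genes with at most 3 reads in Control(D), such as Madcam1 and Elf3, the plotted fold change depends on the small count that the fit adds.

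The number of calls changed when single libraries were left out, which also changes the number of genes tested and the size of the fit. It was 33 without Control(D) 1, 17 without Control(D) 2, 31 without Control(D) 3 and 26 without Ikk2ca(D) 2. It rose to 107 without Ikk2ca(D) 1, with 90 higher and 17 lower, and 53 of the 67 genes were among these. Of the 59 named genes, 12 were called in each of the 8 fits that left out 1 library, among them Cdkn1a, Ncan, Madcam1, Icam1, Tnfaip3, Cyba, Slc39a4, Scd2, Rp2, Spata13 and Mrpl13. With a term for Xist above or below 10 CPM in the fit, all 67 genes kept their direction and an unadjusted p under 0.05, with a median ratio of 0.921 to the first estimate, but 4 were still called after adjustment: Cdkn1a, Slc39a4, Madcam1 and Rp2. Of the 67 genes, 4 (5.97%) lie on the X chromosome, Fmr1nb, Rps6ka3, Rp2 and Sat1, against 2.88% of genes tested.

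**Figure D2:**
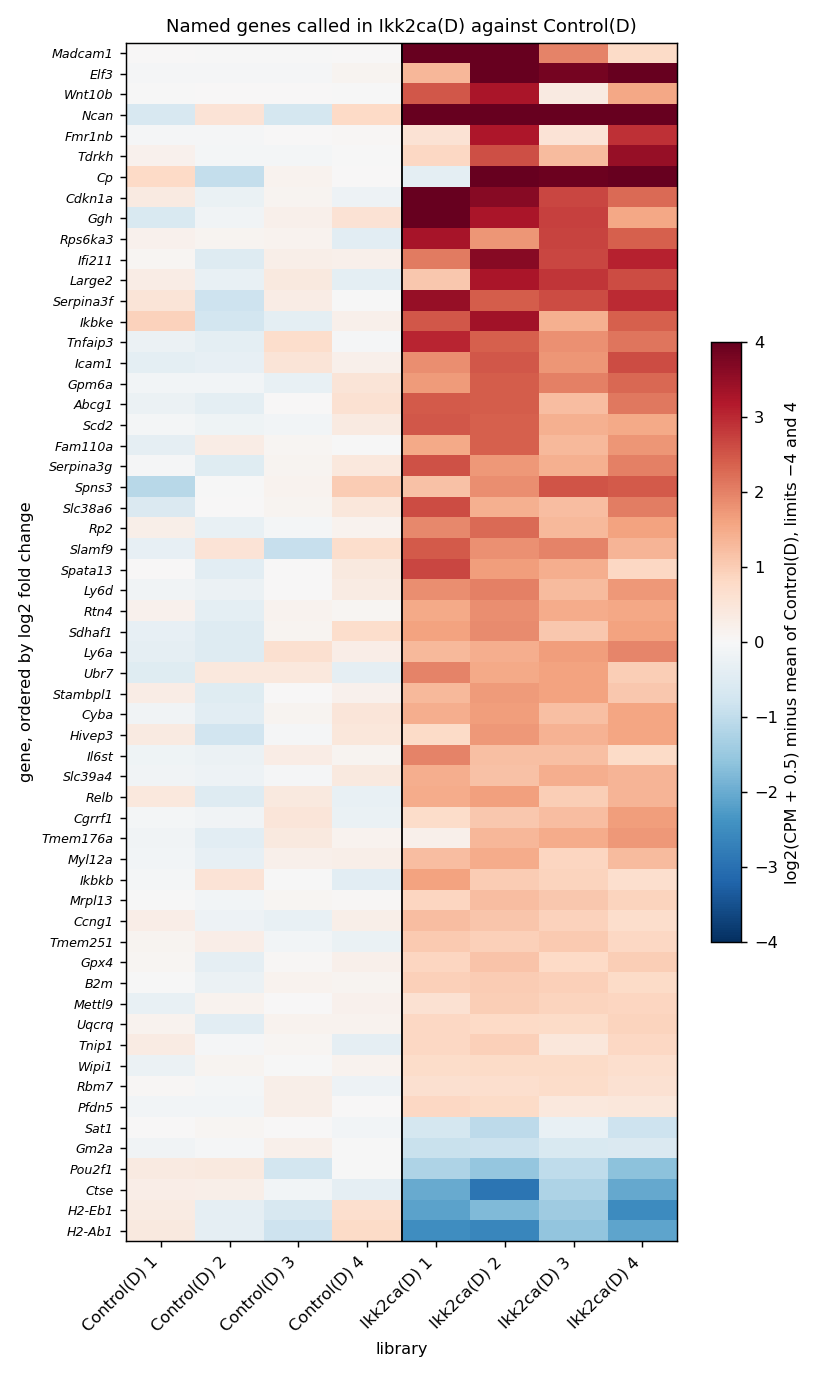
Level of 58 named called genes in each of the 8 libraries, as log2(CPM + 0.5) minus the mean of the 4 Control(D) libraries, with colours limited to -4 and 4. The 52 rises shown are red across the Ikk2ca(D) columns, in some cells only faintly. Apart from this are Cp and Tmem176a in Ikk2ca(D) 1, which stay within the range of the controls. The 6 falls are blue.

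The kinase and its pathway came first. Ikbkb, on the minus strand of chromosome 8 (22659212 to 22706589, GRCm38), stood at 24.5, 37.8, 25.6 and 19.1 CPM in Control(D) and at 80.6, 52.8, 48.4 and 41.3 CPM in Ikk2ca(D). The groups did not overlap, and the highest level was in Ikk2ca(D) 1. The rise was 2.09-fold (log2 1.06, SE 0.23, edgeR adjusted p = 0.0451), and reads of a transgene and of the mouse's own gene cannot be told apart in these sums. The call was kept without Control(D) 2, Ikk2ca(D) 3 or Ikk2ca(D) 4 and lost without each of the other 5 libraries (adjusted p = 0.0963 to 0.150), with a log2 value of 0.82 without Ikk2ca(D) 1. The genes behind the other groups' transgenes were not called: Ccnd1 was at 0.596 to 1.26 CPM in Control(D) and 0.540 to 3.49 CPM in Ikk2ca(D), and Nsd2, the gene behind MMSET, at 3.04 to 8.22 and 3.40 to 9.62 CPM, with edgeR adjusted p of 0.645 and 0.992.

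Among 11 tested genes for feedback inhibitors of NF-κB, 2 rose and none fell, with a median log2 fold change of 0.77. Tnfaip3, which encodes A20, an enzyme that edits ubiquitin chains to shut the pathway off, went from 17.6, 15.8, 34.6 and 20.1 CPM in Control(D) to 177, 112, 76.2 and 93.5 CPM in Ikk2ca(D). The lowest Ikk2ca(D) library was above the highest control, and the change was 5.2-fold (log2 2.38, SE 0.36, edgeR adjusted p = 0.00449). Tnip1, which encodes a ubiquitin-binding partner of A20, was at 23, 17.9, 19.3 and 14.3 CPM in Control(D) and at 32.7, 36.2, 25.5 and 32.7 CPM in Ikk2ca(D). That is a rise of 0.77 on the log2 scale (SE 0.16, edgeR adjusted p = 0.0339), again with no overlap, and it was called in 2 of 8 fits with 1 library left out, those without Control(D) 1 or Ikk2ca(D) 3. Nfkbia, the gene of IκBα, missed the threshold at 280.3 ± 68.0 against 551 ± 64.0 CPM (SD, n = 4 each; log2 0.98, edgeR adjusted p = 0.0587), although its 4 Ikk2ca(D) libraries were all above its controls. Nfkbie, another IκB gene, was at 12.2 to 20.7 CPM in Control(D) and split in Ikk2ca(D) into 56.9 and 67.2 CPM in libraries 1 and 2 and 17.9 and 22.2 CPM in libraries 3 and 4.

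Of 24 tested subunits and upstream kinases, 3 rose, none fell and the median was -0.00. Besides Ikbkb these were Ikbke and Relb. Ikbke, which encodes the IKK-related kinase IKKε, was at 8.83, 2.45, 3.31 and 5.19 CPM in Control(D) and at 27.0, 50.5, 12.8 and 25.6 CPM in Ikk2ca(D), a 5.86-fold rise (edgeR adjusted p = 0.0191). Relb, the NF-κB subunit of the alternative pathway, was at 31.1, 16, 30.4 and 18.8 CPM in Control(D) and at 66.0, 72.3, 45.7 and 60.5 CPM in Ikk2ca(D), a 2.54-fold rise (edgeR adjusted p = 0.0198). Neither gene's groups overlapped. Ikbke was called in 4 and Relb in 5 of the 8 fits with 1 library left out, and both were lost without Control(D) 2 (adjusted p = 0.0814 and 0.0868), Control(D) 4 (0.0521 and 0.0592) or Ikk2ca(D) 2 (0.0613 and 0.0653). Ikbke was also lost without Control(D) 3 (0.0747).

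Of 31 tested NF-κB target genes, 1 rose and none fell, and the median of the list was -0.05, which turned to 0.32 without Control(D) 4. That gene was Icam1, an adhesion molecule bound by leukocyte integrins. Its levels were 19.1, 19.7, 36.4 and 28.9 CPM in Control(D) and 91.8, 144, 86.3 and 155 CPM in Ikk2ca(D). All 4 Ikk2ca(D) libraries exceeded all controls, by 4.59-fold on average (log2 2.2, SE 0.31, edgeR adjusted p = 0.00248). Ebi3, a subunit of the cytokines IL-27 and IL-35, and Il10, an immunosuppressive cytokine, had fitted log2 fold changes of 2.84 and 2.62 without overlap of the groups, but edgeR adjusted p of 0.0981 and 0.148.

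**Figure D3:**
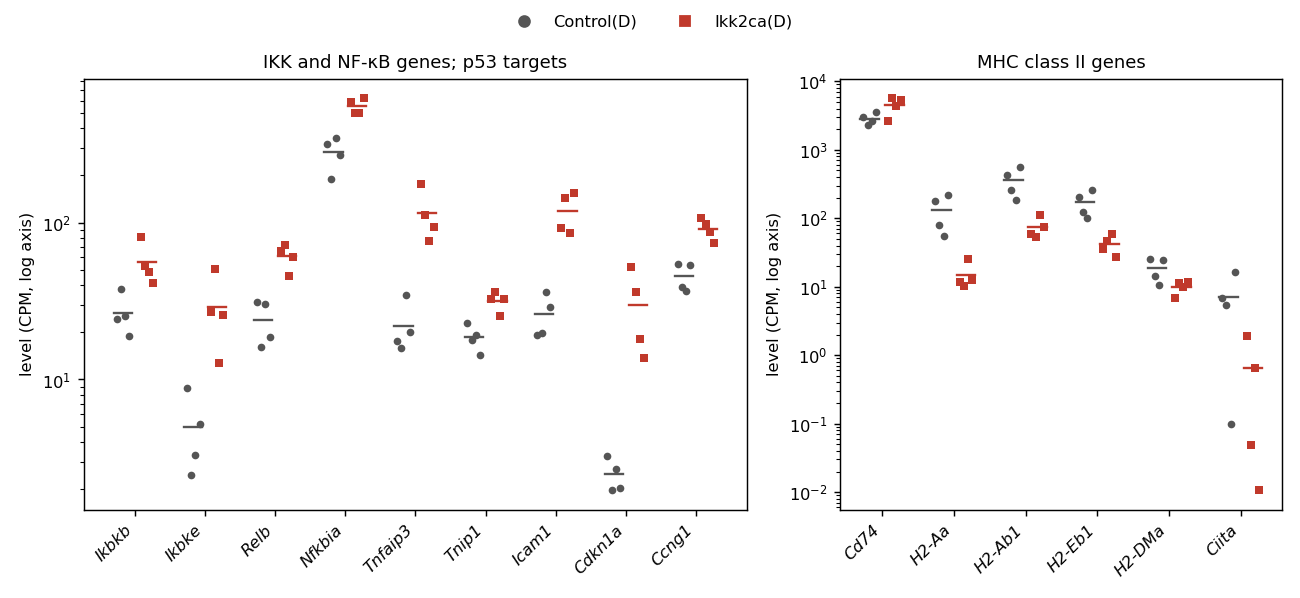
Level in CPM (log axis) of 7 genes of the IKK and NF-κB pathway, 2 p53 targets and 6 MHC class II genes in the 4 libraries of Control(D) (grey circles) and Ikk2ca(D) (red squares), with bars at the means. For all 9 genes on the left the lowest Ikk2ca(D) value is above the highest control value, while H2-Aa, H2-Ab1 and H2-Eb1 on the right are separated in the other direction and Cd74 is not.

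To show what lies upstream of genes that rose, the 250 bases before the RefSeq start (GRCm38.p6) were searched on both strands for the 10-base κB consensus, the sequence bound by NF-κB. It matched in 7.25% of 32851 promoters in the RefSeq table and in 10.2% of 10350 genes tested that had an entry. Among the called genes with an entry, it matched in 10 of 40 that were higher (25%) and in 0 of 4 that were lower. Those 10 were Elf3, B2m, Tmem176a, Tnfaip3, Madcam1, Tnip1, Serpina3g, Wnt10b, Myl12a and an unnamed gene model. Among them, 3 are shown because they differ in the number and spacing of the matches, which are in capitals, 5′ to 3′ on the strand of the gene. In Tnip1 (chr11:54962941-54963190, minus strand) 3 matches overlap in 1 block that begins 58 bases before the start. In Madcam1 (chr10:79664309-79664558, plus strand) 2 matches begin 83 and 70 bases before the start. In Serpina3g (chr12:104235897-104236146, plus strand) 1 match begins 85 bases before the start.
Tnip1: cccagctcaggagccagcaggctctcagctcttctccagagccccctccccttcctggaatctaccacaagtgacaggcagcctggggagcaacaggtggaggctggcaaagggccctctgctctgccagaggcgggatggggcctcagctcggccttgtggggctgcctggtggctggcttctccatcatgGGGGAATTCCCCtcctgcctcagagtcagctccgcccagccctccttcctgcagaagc
Madcam1: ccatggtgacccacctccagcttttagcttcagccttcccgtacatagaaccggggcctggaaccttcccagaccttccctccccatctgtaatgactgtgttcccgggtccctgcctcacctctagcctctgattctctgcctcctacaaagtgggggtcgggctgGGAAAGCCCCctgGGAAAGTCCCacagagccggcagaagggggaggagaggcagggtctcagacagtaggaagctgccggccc
Serpina3g: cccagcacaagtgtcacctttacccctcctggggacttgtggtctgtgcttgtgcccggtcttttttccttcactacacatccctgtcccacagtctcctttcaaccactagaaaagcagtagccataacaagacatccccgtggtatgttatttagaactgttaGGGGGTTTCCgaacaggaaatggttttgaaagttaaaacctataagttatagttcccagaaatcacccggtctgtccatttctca
A match shows that these letters are present and not that NF-κB was bound there.

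In cell cycle control the gene that rose was Cdkn1a, which encodes the cyclin-dependent kinase inhibitor p21 and is a classic p53 target (chromosome 17, 29090976 to 29100727, plus strand). Control(D) libraries were at 3.23, 1.96, 2.68 and 2.04 CPM and Ikk2ca(D) libraries at 52.1, 36.1, 18.1 and 13.6 CPM. No library overlapped, and the rise was 12.1-fold (log2 3.60, SE 0.48, edgeR adjusted p = 0.00248). Ccng1, which encodes cyclin G1 and is another p53 target, rose from 45.7 ± 9.26 to 91.2 ± 14.0 CPM (SD, n = 4 each; edgeR adjusted p = 0.0252), and this call was lost without Control(D) 2, Control(D) 3 or Ikk2ca(D) 2 (adjusted p = 0.102, 0.0889 and 0.0723). These were the 2 calls among 23 tested p53 target genes, of which none fell and whose median was 0.48. Bbc3, Zmat3 and Btg2 had log2 fold changes of 0.96, 1.37 and 0.56 with edgeR adjusted p of 0.154, 0.156 and 0.163. Of 30 genes of mitosis and 32 of DNA replication none was called, with medians of -0.73 and -0.07. The mitosis median rested on single libraries, at -0.32 without Control(D) 4 and -1.09 without Ikk2ca(D) 1, and was -0.17 with the Xist term. Cdc20, an activator of the anaphase-promoting complex, was nearest to a call in the mitosis list (log2 -1.30, edgeR adjusted p = 0.156).

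Genes best known from other tissues were among the rises. Of 29 listed acute phase and epithelial-type secreted genes, 17 passed the filter on low counts, which a silent gene can pass through the group where it is high, so that their count and median are a description only. Of these 17, 5 rose and none fell, with a median of 1.96. With no filter, 26 were tested, 3 rose and the median was 0.60. The count was 1 without Control(D) 1, 2 or 3, 2 without Control(D) 4 and 3 without Ikk2ca(D) 2, 3 or 4. Ncan, the gene of the brain proteoglycan neurocan, had levels of 0.137, 0.954, 0.0993 and 1.20 CPM in Control(D) and 63.6, 171, 60.6 and 147 CPM in Ikk2ca(D). The lowest Ikk2ca(D) library was far above the highest control, and the fitted rise was 7.53 on the log2 scale (SE 1.14, edgeR adjusted p = 0.0102). Elf3, which encodes an ETS transcription factor of epithelia, had 3 reads in all 4 Control(D) libraries together and 2277 in Ikk2ca(D), with levels of 0.785, 8.0, 6.69 and 12.6 CPM. Library Ikk2ca(D) 1 was the low one, and the call (edgeR adjusted p = 0.0188) was lost when any 1 of the 4 controls was left out (adjusted p = 0.0677 to 0.0873).

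Cp, the gene of the copper-binding plasma protein ceruloplasmin, was at 29.5, 8.47, 18.8 and 17 CPM in Control(D) and at 12.8, 521, 261 and 416 CPM in Ikk2ca(D). Libraries 2, 3 and 4 of Ikk2ca(D) were high and Ikk2ca(D) 1 lay within the range of the controls, so that the groups overlapped. The fitted rise was 16.4-fold (edgeR adjusted p = 0.0413), and without Ikk2ca(D) 1 the log2 value was 4.43 (adjusted p = 0.00189). The call was lost in each of the other 7 fits with 1 library left out (adjusted p = 0.0589 to 0.149). Csn3, which encodes the milk protein κ-casein, had the same pattern of libraries, with 2.91, 178, 99.8 and 93.2 CPM in Ikk2ca(D) against 1.36 to 5.69 CPM in Control(D) (edgeR adjusted p = 0.059), and was called without Ikk2ca(D) 1 (adjusted p = 0.0098).

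Serpina3f and Serpina3g, neighbouring genes of serine protease inhibitors on chromosome 12, rose 7.24-fold and 3.88-fold. Serpina3f was at 68.3, 26.7, 59.0 and 47.1 CPM in Control(D) and at 531, 255, 290.0 and 380.3 CPM in Ikk2ca(D) (edgeR adjusted p = 0.044), and Serpina3g at 65.8, 48.4, 73.5 and 91.9 CPM against 397, 228, 185 and 277 CPM (edgeR adjusted p = 0.0199). Neither overlapped, but near-identical copies in this family make the split of reads between them uncertain. The Serpina3g call was lost without Control(D) 1, 2 or 3 (adjusted p = 0.0684 to 0.0887), and the Serpina3f call was lost in each of the 8 fits with 1 library left out (adjusted p = 0.0589 to 0.151).

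Madcam1, an adhesion molecule of gut endothelium that binds the integrin α4β7, had 2 reads over the 4 controls and stood at 38.3, 24.0, 1.51 and 0.371 CPM in Ikk2ca(D) (edgeR adjusted p = 0.00248). Its levels in libraries 1 and 2 were more than 10 times those in libraries 3 and 4. Wnt10b, a secreted Wnt ligand, had 2 reads in the controls and 0.155 to 4.42 CPM in Ikk2ca(D) (edgeR adjusted p = 0.0204). Fmr1nb had 3 control reads and 0.241 to 4.37 CPM (edgeR adjusted p = 0.0334), and Tdrkh, which encodes a Tudor-domain protein of the piRNA pathway, went from 9 control reads to 0.440 to 5.43 CPM (edgeR adjusted p = 0.0253). Large2, a glycosyltransferase gene, rose 7.72-fold, with 3.79 CPM in Ikk2ca(D) 1 and 12 to 19.4 CPM in the other 3 libraries against 1.07 to 2.19 CPM in Control(D) (edgeR adjusted p = 0.00804; 0.0519 without Control(D) 2). Leaving out Control(D) 2 or Ikk2ca(D) 2, among others, also ended the calls of Wnt10b, Fmr1nb and Tdrkh (adjusted p = 0.0605 to 0.143).

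Among the genes of antigen presentation, 1 of class I rose and 2 of class II fell. MHC class I presents peptides from inside the cell, and B2m is its invariant light chain. B2m stood at 2389.7, 2068, 2638 and 2599.9 CPM in Control(D) and at 4689.6, 4896, 4715 and 4083 CPM in Ikk2ca(D), a 1.90-fold rise without overlap (edgeR adjusted p = 0.0225) that was lost without Control(D) 1, 2 or 3 or Ikk2ca(D) 2 (adjusted p = 0.0591 to 0.0979). It was the 1 call among 21 tested class I and immunoproteasome genes, whose median was 0.41 and of which 18 had a fitted value above 0. Over all 15323 genes tested, 7803 had a fitted value above 0. With the Xist term in the fit, the class I median was 0.16, and B2m was not called (edgeR adjusted p = 0.256). H2-K1, a class I heavy chain, was at 953 ± 174 against 1570.3 ± 111 CPM (SD, n = 4 each) and missed the threshold (edgeR adjusted p = 0.153).

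MHC class II presents peptides taken up from outside and is normally low in plasma cells. Of 11 tested class II genes, 2 fell and none rose, and the median was -2.07. H2-Ab1, the β chain of I-A, was at 432, 257, 184 and 562 CPM in Control(D) and at 58.2, 52.9, 110.0 and 75.3 CPM in Ikk2ca(D). Every Ikk2ca(D) library was below every control, and the gene fell by 2.28 on the log2 scale (SE 0.38, edgeR adjusted p = 0.0116). H2-Eb1, the β chain of I-E, went from 204, 124, 103 and 255 CPM to 35.6, 47.1, 59.1 and 27.6 CPM (log2 -2.02, SE 0.36, edgeR adjusted p = 0.0152), also without overlap. Both calls were kept in 7 of 8 fits with 1 library left out and were lost without Ikk2ca(D) 2 (adjusted p = 0.0508 for each). H2-Aa, the α chain of I-A, did not overlap either at 54.2 to 216 against 10.4 to 25.1 CPM, with an edgeR adjusted p of 0.0745.

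Cd74, the invariant chain that guides class II molecules, did not follow the class II chains. It was at 3009, 2268, 2628 and 3548 CPM in Control(D) and at 2665, 5679, 4332 and 5311 CPM in Ikk2ca(D) (log2 0.65, SE 0.33, edgeR adjusted p = 0.414), and the groups overlapped through Ikk2ca(D) 1. Beside the class II genes, the median over 20 tested markers of B cells was -1.35, and 1 of them was called, the rise of Ly6d. Their summed level was 1348 to 1659 CPM in Control(D) and 1373 to 1887 CPM in Ikk2ca(D), and so overlapped. Ly6d carried the overlap: without it the other 19 markers summed to 1123 to 1421 CPM in Control(D) and to 625 to 935 CPM in Ikk2ca(D), below all controls in each library. Ly6d was left out after the values were seen, and it is the called rise of the list, so this separation is a description only. Cd79a, a part of the B cell receptor and uncalled, was at 590.4 ± 119 against 345 ± 91.7 CPM (SD, n = 4 each; edgeR adjusted p = 0.192). In sorted cells measured in bulk, fewer cells of a type and less RNA per cell cannot be told apart. The part of other B lineage cells, or of dendritic cells, in the class II values was not tested.

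Ctse, the gene of the aspartic protease cathepsin E, fell from 81.2, 79.6, 63.1 and 52.7 CPM to 16.5, 8.49, 28.6 and 16.1 CPM, by 1.99 on the log2 scale (edgeR adjusted p = 0.0176). Pou2f1, the gene of the transcription factor Oct-1, fell from 30.0 ± 9.52 to 11 ± 2.36 CPM (SD, n = 4 each; edgeR adjusted p = 0.0132), and it overlaps Cd247, so reads of the 2 genes may be mixed where no strand was used. Gm2a, an activator protein for ganglioside breakdown, and Sat1, the enzyme that acetylates polyamines, fell by 0.73 and 0.70 on the log2 scale (edgeR adjusted p = 0.0324 and 0.0413). All 6 falls separated the groups, but those of Gm2a and Sat1 were called only without Ikk2ca(D) 3 among the 8 fits with 1 library left out. Ctse lost its call without Control(D) 1 or 2 or Ikk2ca(D) 2 or 4 (adjusted p = 0.0531 to 0.0769), and Pou2f1 without Control(D) 2 or Ikk2ca(D) 2 (0.068 and 0.0537).

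Among 40 tested interferon-stimulated genes, 1 rose and none fell, with a median of 0.36. That gene was Ifi211, a member of the p200 family of DNA sensors, at 18.8, 12.1, 20.8 and 20.5 CPM in Control(D) and 75.7, 227, 115 and 152 CPM in Ikk2ca(D) (7.89-fold, edgeR adjusted p = 0.00923; 0.0525 without Control(D) 2). The groups did not overlap, and reads shared with the overlapping Mndal make the value uncertain. Gbp3, an interferon-inducible GTPase, was at 9.18 ± 3.78 against 32.3 ± 2.51 CPM (SD, n = 4 each) without overlap and missed the threshold (edgeR adjusted p = 0.0785).

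Ly6a and Ly6d, GPI-anchored surface proteins encoded 231 kb apart on chromosome 15, rose 2.90-fold and 3.31-fold (edgeR adjusted p = 0.0276 and 0.0362). Ly6a went from 623, 558, 1246 and 973 CPM to 1967, 2218, 2548 and 3142 CPM, and Ly6d from 238, 225, 269 and 333 CPM to 952, 1061, 638 and 877 CPM. All Ikk2ca(D) libraries were above all controls for both. Ly6a was called without Control(D) 3, Ikk2ca(D) 1 or Ikk2ca(D) 3, and Ly6d only without Ikk2ca(D) 3, among the 8 fits with 1 library left out. Ly6c2, from the same family, was high in 3 of 4 Ikk2ca(D) libraries, at 3787, 4222 and 3269 CPM, but stood at 559 CPM in Ikk2ca(D) 1 against 475 to 839 CPM in Control(D) (edgeR adjusted p = 0.20); it is named here after its values were seen.

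Abcg1, a cholesterol exporter, rose from 20.5 ± 6.96 to 88.8 ± 29.7 CPM (SD, n = 4 each; 4.32-fold, edgeR adjusted p = 0.025). Scd2, a fatty acid desaturase, was at 26.7, 25, 26.4 and 36 CPM in Control(D) and at 160.5, 151, 77.2 and 82.0 CPM in Ikk2ca(D) (4.12-fold, edgeR adjusted p = 0.00449). Libraries 1 and 2 were the highest for both genes, and the Abcg1 call was lost without Control(D) 1, 2 or 3 or Ikk2ca(D) 2 or 4 (adjusted p = 0.0504 to 0.102). Ggh, which removes the glutamate tail of folates, ranged widely in Ikk2ca(D), at 565, 191, 132 and 57.5 CPM against 12.4 to 29.1 CPM in Control(D), and rose 11.7-fold (edgeR adjusted p = 0.0176; 0.0629 to 0.0814 without Control(D) 1, 2 or 3). Slc39a4, a zinc importer, was the most even of these, at 21.6, 20.9, 23.1 and 31.6 CPM in Control(D) and 66.2, 55.0, 66.5 and 62.4 CPM in Ikk2ca(D) (2.57-fold, edgeR adjusted p = 0.00248).

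Cyba, the p22phox subunit of NADPH oxidases, went from 116, 95.9, 140.4 and 179.6 CPM to 355, 411, 300.2 and 384 CPM (2.72-fold, edgeR adjusted p = 0.00248). Gpx4, the peroxidase that clears oxidised lipids, went from 89.6 ± 14.1 to 172 ± 17.4 CPM (SD, n = 4 each; 1.92-fold, edgeR adjusted p = 0.014). Neither gene's groups overlapped, while Cyba shares its locus with the gene model Gm20388, and Gpx4 lost its call without Control(D) 2 or Ikk2ca(D) 2 (adjusted p = 0.0769 and 0.0508). Of 32 tested genes of oxidative phosphorylation, 1 rose, Uqcrq of complex III, from 48.9 to 72.5 CPM in Control(D) to 111 to 122 CPM in Ikk2ca(D) (edgeR adjusted p = 0.0331). It was called only without Ikk2ca(D) 1 among the 8 fits with 1 library left out. The median of the list was 0.26 with 28 fitted values above 0, against 7803 of 15323 over all genes tested. The remaining named rises included the receptor chain Il6st (2.58-fold), the membrane proteins Gpm6a (4.41-fold), Slamf9 (3.58-fold) and Tmem176a (2.40-fold), the kinase Rps6ka3 (9.0-fold), the transporters Slc38a6 (3.82-fold) and Spns3 (3.87-fold) and Rp2 (3.67-fold), with edgeR adjusted p from 0.00266 to 0.0485. Of the 8 fits with 1 library left out, Tmem176a was called only without Ikk2ca(D) 1, Slamf9 only without Control(D) 4 and Il6st only without Ikk2ca(D) 3 or 4. Gpm6a was called in 3 of these fits, Slc38a6 in 3, Spns3 in 5, Rps6ka3 in 7 and Rp2 in 8, and without Control(D) 2 each of these 8 calls but that of Rp2 was lost. Tmem176a was also the one of these genes whose groups overlapped.

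Of 29 tested genes of plasma cell identity, 1 rose (Il6st) and none fell, and the median was -0.11. Sdc1, which encodes CD138, was at 323 to 393 CPM in Control(D) and 267 to 513 CPM in Ikk2ca(D). Tnfrsf13b, which encodes TACI, was at 287 to 330 CPM in Control(D) and 156 to 252 CPM in Ikk2ca(D), below all controls but not called (edgeR adjusted p = 0.189). Jchain, the joining chain of IgM and IgA, was at 70914, 74509, 93593 and 49367 CPM in Control(D) and at 23499.8, 13771, 43014 and 33685 CPM in Ikk2ca(D), without overlap and again not called (log2 -1.34, SE 0.51, edgeR adjusted p = 0.265). The secretory pathway list (31 tested), the list of amino acid stress genes (24), the apoptosis regulators (21), the TNF superfamily (22), the immune interaction ligands (22) and the histone methylation enzymes (15) had no call. Their medians lay between -0.23 and 0.31. Bcl2l11 and Mcl1, which encode the pro-death protein BIM and the survival protein MCL1, were above all controls in each Ikk2ca(D) library, at 29.1 ± 11.6 against 6.22 ± 3.58 CPM and 71.9 ± 30.3 against 23.1 ± 3.65 CPM (SD, n = 4 each), with edgeR adjusted p of 0.119 and 0.176.

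Lists of markers of other cells held no called gene. Summed over 12 T cell markers the level was 23.5 to 42.8 CPM in Control(D) and 8.33 to 12.3 CPM in Ikk2ca(D), without overlap, and Cd3g was at 0.248 to 11.8 CPM in Control(D) and 0 to 1.10 CPM in Ikk2ca(D). For 16 monocyte and macrophage markers the sum was 415 to 532 CPM in Control(D) and 623 to 937 CPM in Ikk2ca(D), most of it Ctss (291 to 414 against 545 to 829 CPM). Without Ctss, left out after the values were seen, the sums overlapped, at 112 to 181 CPM in Control(D) and 71.1 to 325 CPM in Ikk2ca(D). C1qc was at 1.36 to 5.36 CPM in Control(D) and 0.159 to 0.774 CPM in Ikk2ca(D). The list as a whole had no common direction, with 8 of the 16 fitted values above 0, 8 below and a median of -0.08. For 9 dendritic cell markers the sum was 198 to 232 CPM in Control(D) and 136 to 178 CPM in Ikk2ca(D), without overlap. Of these 9, Itgax and Clec9a had no reads in any of the 8 libraries. The 6 dendritic cell markers tested had 3 fitted values above 0 and 3 below, with a median log2 fold change of -0.09. The 15 neutrophil markers overlapped, at 65.4 to 561 CPM and 52.2 to 564 CPM. Their part in the rises and falls above was not tested.

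**Figure D4:**
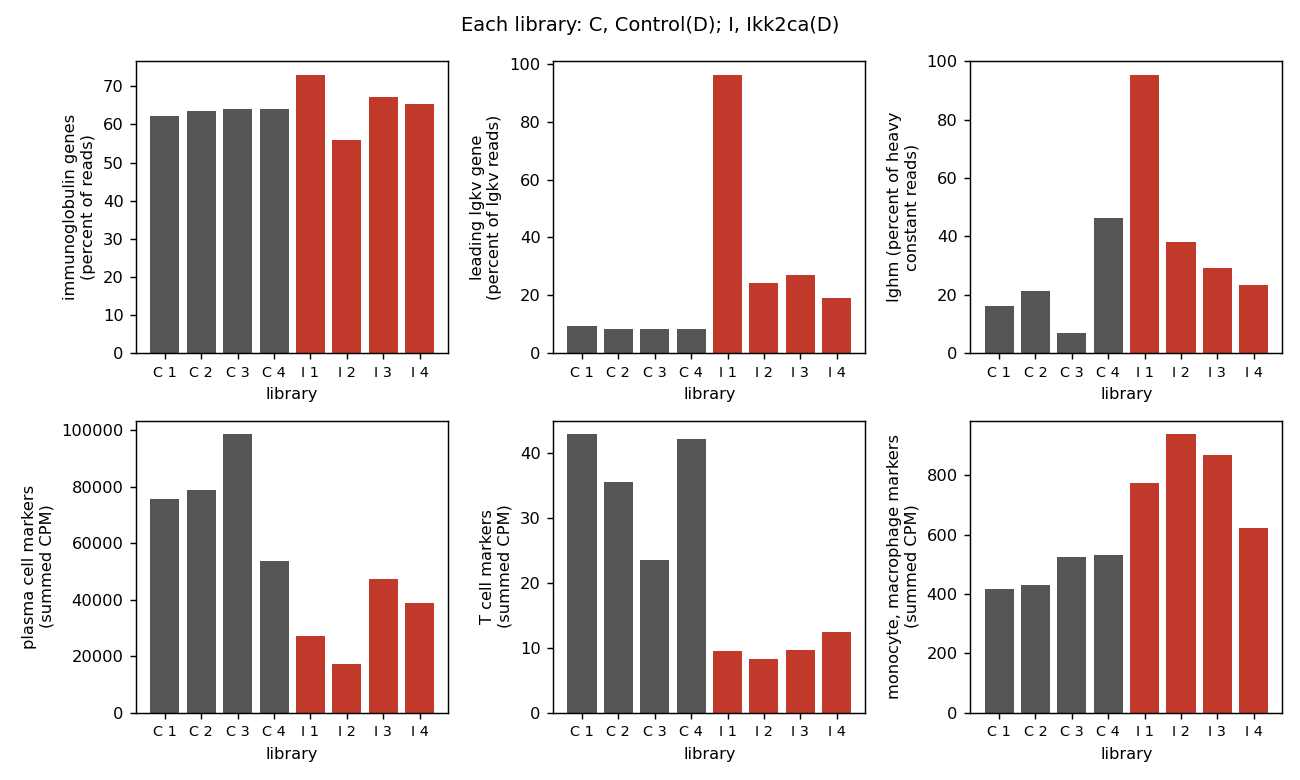
Measures of each library, with Control(D) in grey and Ikk2ca(D) in red: immunoglobulin reads, the leading Igkv gene and Ighm as percentages, and summed CPM of plasma cell, T cell and monocyte markers. Ikk2ca(D) 1 stands out by a leading Igkv gene of 96.2% and Ighm of 95.3%, and all 4 Ikk2ca(D) libraries are below all controls for the T cell markers. They are below them for the plasma cell markers too through Jchain, without which the sums overlap, at 4433 to 4903 CPM in Control(D) and 3607 to 5181 CPM in Ikk2ca(D). Jchain was left out after the values were seen.

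The most used antibody V genes were compared as shares of their family. The leading Igkv gene took 9.36%, 8.45%, 8.37% and 8.52% of Igkv reads in Control(D) and 19.2% to 96.2% in Ikk2ca(D), with p = 0.0286 in an exact two-sided permutation test, which is the smallest p this design can give, and 0.20 after Benjamini-Hochberg adjustment over 7 immunoglobulin measures. For the leading Ighv gene the ranges were 5.96% to 11.5% and 9.09% to 90.3% (exact permutation p = 0.0571, adjusted 0.20). Without Ikk2ca(D) 1 the exact permutation p values were 0.0571 and 0.114, and 0.0571 is the smallest possible with that library left out. The remaining Ikk2ca(D) libraries, at 24.3%, 27.2% and 19.2% of Igkv reads, were all above the Control(D) libraries. They lay within reach of libraries without Ikk2ca elsewhere in the series. In Control(M) 2, 3 and 4 the leading Igkv gene took 28.4%, 23.6% and 18.5%, with a lower share in Control(M) 1. It took 24.6% in Ccnd1 4, and 5.58% to 8.65% in Ccnd1 1, 2 and 3. In Ikk2ca(M) the range was 31.3% to 82.3%. The difference in cohort M was not tested. These V gene measures were chosen after the data were seen.

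The same transgene in cohort M served as a comparison in other libraries, none of which is shared. There 100 of 15416 genes tested were called (0.649%), 78 higher (0.506%) and 22 lower (0.143%). That count was 56 without Control(M) 3, 44 without Ikk2ca(M) 2 and 46 without Ikk2ca(M) 3. All 67 genes called in cohort D were tested in cohort M, 67 had the same direction, 48 had an unadjusted p under 0.05 and 20 were called. Over all genes tested in cohort M, 1912 (12.4%) had an unadjusted edgeR p under 0.05. The share of all genes with the same direction in both cohorts was not counted. The 20 were Cdkn1a, Ccng1, Icam1, Relb, Ikbke, Tnip1, Elf3, Ncan, Ifi211, Cyba, Gpx4, Scd2, Abcg1, Gpm6a, Ly6a, Ly6d, Tmem176a and Stambpl1 among the rises and Ctse and Sat1 among the falls. Cdkn1a, for example, went from 3.76 to 32.4 CPM in cohort M (log2 3.10, edgeR adjusted p = 0.0118), against 3.60 in cohort D. Tnfaip3 and Ikbkb had similar log2 values in both cohorts (2.16 and 1.08 in cohort M) with edgeR adjusted p of 0.0521 and 0.0532 there. Xist was above 10 CPM in 4 of 4 Ikk2ca(M) and 2 of 4 Control(M) libraries, so this comparison too is unequal in sex.

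**Figure D5:**
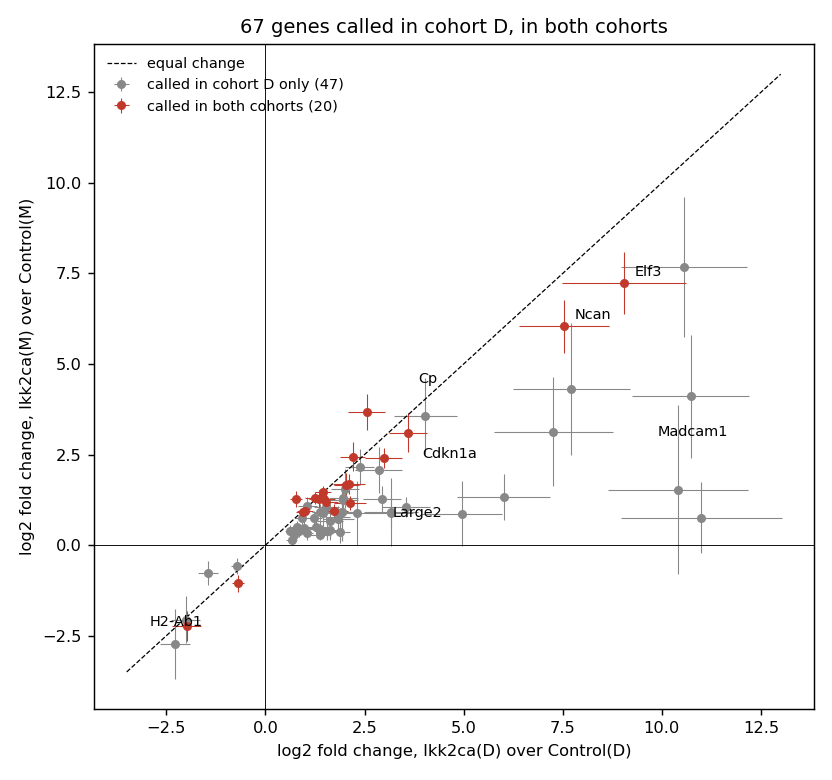
Log2 fold change of the 67 genes called in cohort D, in cohort D (x axis) and in cohort M (y axis), with bars of 1 SE. All 67 lie on the same side of 0 in both cohorts, the 20 called in both are red, and most points fall below the dashed line of equal change.

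The size of the change was larger in cohort D for 57 of the 67 genes, with a median ratio of 0.615 of the value in cohort M to that in cohort D. These genes were chosen by their call in cohort D, so the 57 is a description. A test of the difference between the cohorts found no gene of 17116 with an edgeR adjusted p under 0.05, while 1079 (6.3%) had an unadjusted p under 0.05 and DESeq2 called 263; without Control(D) 4, edgeR called 1. Of the 67 genes, 21 had an unadjusted p under 0.05 for the difference. Their choice by the call in cohort D favours a low p here, so the 21 is a description too. By smallest unadjusted p among named genes whose average log2 CPM reached 1 or more, the leading genes were Rbm22 (log2 difference D minus M -1.30), Yipf1 (-0.81), Ggh (2.48), Cstf1 (1.66), Rp2 (1.5) and Kdm3a (1.43), each with an edgeR adjusted p of 0.594. Ggh illustrates the case: it went from 20.3 to 236 CPM in cohort D and from 90.9 to 189 CPM in cohort M, so the controls differed as well.

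In cells that carry Ccnd1 together with Ikk2ca, compared with the same Control(D) libraries, the fitted values stood beside those of Ikk2ca(D) as follows. The log2 fold change was 4.17 for Cdkn1a (3.60 with Ikk2ca alone), 2.69 for Tnfaip3 (2.38), 2.87 for Icam1 (2.2) and 0.96 for Ikbkb (1.06). It was 5.84 for Cp (4.04) and 8.66 for Ncan (7.53). For H2-Ab1 it was -3.11 (-2.28) and for Ctse -2.67 (-1.99). Since both columns share their controls, their likeness is not independent support.

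Library Ikk2ca(D) 1 stood apart beyond its antibody. Of 6120 genes outside the immunoglobulin genes whose average log2 CPM reached 3 or more, 22 were more than 2-fold above all controls in Ikk2ca(D) libraries 2, 3 and 4 but not above the controls in library 1. The same count was 0, 1 and 1 with libraries 2, 3 and 4 as the one left behind. The 22 included Cp, Csn3, Ly6c2, Ccnd2, the cyclin D2 gene, at 109 CPM in library 1 and 315 to 837 CPM in the others, and Klra17 at 3.98 CPM against 47.7 to 98.8 CPM; they were picked by these values. For 30 genes library 1 was more than 4-fold below all 7 other libraries, against 1 to 11 genes for any other of the 8 libraries. In spite of this, Ikk2ca(D) 1 had the highest level of the 4 in 23 of the 61 rises and the lowest in 14.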

How the data were processed

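RNA of 36 libraries of sorted mouse plasma cells was reverse transcribed with an oligo-dT primer and template switching and tagged with Nextera XT, per the labels' protocols. Reads were demultiplexed with bcl2fastq 2.20.0.422 and quantified with Salmon 1.3.0 on GRCm38, and DESeq2 1.32.0 was used, per the submitters' processing notes. The authors deposited, per transcript, Salmon's estimated counts, which need not be whole, and TPM, which the authors' run scaled within each library, per the file headers; TPM served only for 1 alternative. No molecular identifiers are described, so PCR copies remain in the counts.

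Estimated counts were summed to 54203 GENCODE vM21 genes (426 immunoglobulin genes) and rounded. Transcripts without a match (865 of 140825) held 0.0689% to 0.111% of reads in the 8 libraries and were left out. No strand was used. Genes were tested with edgeR 4.0.16 (TMM, filterByExpr, robust quasi-likelihood, two-sided) in R 4.3.3 on the 18 libraries of cohort D, which share 1 estimate of the spread, and likewise on the 18 of cohort M; the difference between cohorts was fitted on all 36. Benjamini-Hochberg adjustment ran over all genes tested. The SE is the absolute log2 fold change over the square root of F. The test was tried on simulated counts. Library-level shares were compared by exact permutation, whose smallest p with 4 libraries a group is 0.0286, in scipy 1.17.1 under Python 3.11.15. Tables used pandas 2.3.3 and numpy 2.4.6, and figures matplotlib 3.10.9.

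Named genes were the 3 targeted genes, every called named gene (1 is not reported here), up to 3 further members per list by smallest p, and 6 genes of the cohort difference; V, D and J segments and Y-linked genes were left out, and Xist served as a sex check. Genes with at most 3 control reads get read numbers and no fold change. The comparison, the lists and the alternatives were chosen with earlier results of these data known. Alternatives were DESeq2 1.42.0, its size factors in edgeR, limma 3.58.1 voom, a fit without the low-count filter, a fit without immunoglobulin genes, the replicate block, other sets of libraries, Xist terms and each library left out.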

Additional observations from a re-analysis of the deposited data

Results flagged for a closer look

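In groups of 4 libraries, 1 value was far from the other 3, by Dixon's ratio, in 8 of 132 groups examined (6.06%), and chance gives about 5%. In Control(D) 4, Scd2 was high at 36 CPM, Rps6ka3 low at 0.527 CPM and Elf3, at 0 in the other 3 controls, at 0.0479 CPM. In Control(D) 2, Rtn4 was low at 15.5 CPM and Uqcrq at 48.9 CPM. In Ikk2ca(D) 2, Rtn4 was high at 74.5 CPM. The leading Igkv gene took 9.36% of Igkv reads in Control(D) 1, the highest control, and 96.2% in Ikk2ca(D) 1. For each of the 5 genes the Ikk2ca(D) libraries were all above the Control(D) libraries.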

How the results depend on the processing

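For Ikk2ca(D) against Control(D), the 67 calls became 687 with DESeq2 (472 higher, 215 lower, all 67 included), 127 with limma voom and quality weights (75 higher, 52 lower), 115 with all 36 libraries in the fit, 4 with the 2-level Xist term, 3 with Xist as a covariate, and 7 without Ikk2ca(D) 1 and with the Xist term, an alternative chosen after seeing the data. Counts were 64 with DESeq2 size factors, 66 with no filter, 83 without immunoglobulin genes and 68 with only the 8 libraries (54 higher, 14 lower); with 1 library left out they ranged from 17 to 107. Replicate numbers did not pair the samples: same-numbered deviations correlated at 0.03, -0.02, 0.04 and 0.00, and the replicate block gave 64 calls (52 higher, 12 lower), 44 of them among the 67. Ikk2ca(M) against Control(M) gave 652 with DESeq2 and 44 to 94 with 1 library left out, and the block 74. The difference between cohorts gave 263 with DESeq2, 0 with the block and 0 to 1 with 1 library left out. The immunoglobulin difference ran from -0.641 (without Ikk2ca(D) 1) to 5.08 points with 1 library left out, and was 0.870 for constant genes and 0.315 for TPM. None of the 59 called named genes reversed its direction under the alternatives run. The cause of these shifts was not tested. With 4 libraries a group, 55 of the 67 calls were of at least 2-fold.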

Other observations

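A few list members not described above had large fitted values without being called. Cd52, a small GPI-anchored lymphocyte antigen, was at 257, 118, 212 and 227 CPM in Control(D) and at 363, 1504, 827 and 2063 CPM in Ikk2ca(D) (log2 2.55, edgeR adjusted p = 0.0983); it was called in cohort M (log2 2.50, edgeR adjusted p = 0.000278). Klrk1, which encodes the receptor NKG2D of natural killer and T cells, was at 0.335 to 3.35 CPM in Control(D) and at 18.6, 13 and 16.9 CPM in Ikk2ca(D) 2, 3 and 4 but 0.0191 CPM in Ikk2ca(D) 1 (edgeR adjusted p = 0.261), while Prf1, the perforin gene of such cells, was at 12.8 to 31.8 CPM in Control(D) and 0.0244 to 4.23 CPM in Ikk2ca(D). Tmem251 and Ubr7, neighbours on chromosome 12, both rose (log2 0.99 and 1.54, edgeR adjusted p = 0.0413 and 0.0313), and the gene model Gm20604 overlaps both. With 1 library left out, Tmem251 was called in 0 of 8 fits and Ubr7 in 1, that without Ikk2ca(D) 4 (adjusted p otherwise 0.0583 to 0.129). Tnip1 and Gm2a, 135 kb apart on chromosome 11, moved in opposite directions (log2 0.77 and -0.73).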
